A study of Mus musculus with 6 samples.

Results

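The 10 genes described here, Fasn, Acaca, Acly, Scd1, Scd2, Srebf1, Elovl5, Thrsp, Me1 and Acss2, make up a set of named lipogenic genes of the mammary gland. They were chosen by name and matched by Ensembl identifier among the 47643 identifiers of the count tables. All 10 passed the filter on low counts, as did 12088 genes in all. Their counts in a library ranged from 28 for Acss2 to 2927 for Scd1. They were measured in tumor epithelial cells sorted as CD45-EPCAM+ from 6 breast tumors of the MMTV-PyMT model (strain FVB/N-Tg (MMTV-PyVT)634Mul/J), in which the mouse mammary tumor virus promoter drives the polyoma middle T antigen in mammary epithelium. All 6 tumors received the same treatment: the VEGF-A-blocking antibody B20-4.1.1, dosed at 5 mg/kg and injected 2 times weekly over 6 weeks, starting at 7 weeks of age. The study sorts treated tumors into low hypoxia (LH) and high hypoxia (HH) classes, but the class of these 6 is in no label, so the tumors were not split, and hypoxia entered only as a continuous score. Untreated tumors were not analysed here, so no value below is an effect of B20-4.1.1.

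Cells build fatty acids from cytosolic acetyl-CoA. Acly makes it from citrate and Acss2 from acetate, Acaca converts it to malonyl-CoA, and Fasn joins these units into palmitate with NADPH, part of which comes from the malic enzyme Me1. The Scd enzymes then place a double bond in the chain and Elovl5 lengthens polyunsaturated chains. Srebf1 encodes the transcription factor SREBP1, which activates many of these genes, and Thrsp (Spot 14) is a small protein tied to the rate of fatty acid synthesis in liver and in the lactating gland. In lactation the mammary epithelium uses this pathway to make milk fat, and many breast cancers keep FASN high.

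Libraries held between 2509482 and 5893246 counts on genes, so that 3 counts, the limit that a count of 0 allows, corresponded to 0.509 CPM (counts scaled to a total of 1000000 per library) in the deepest library and 1.195 CPM in the shallowest. These limits cover counting error only. The 7 luminal epithelial markers, Epcam and Krt8 among them, summed to between 3957 and 4874 CPM. The 8 adipocyte markers, which matter most for lipogenic genes, summed to between 0.599 and 5.58 CPM. Lep was at 0 in every tumor and Adipoq did not exceed 0.398 CPM. The sums were 132 to 504 CPM for 7 basal markers, 104.8 to 308 CPM for 13 immune markers, 14.8 to 24.2 CPM for 6 fibroblast markers and 1.59 to 4.12 CPM for 5 endothelial markers. Erythroid markers reached 864 CPM in tumor 3, while no other tumor exceeded 69.4 CPM. Tumor 1 stood apart from the other libraries: its median correlation with them over 8873 genes was 0.788, against 0.905 to 0.939 for the rest, and its mitochondrial share was the lowest (7.50%). The main ratios and correlations are therefore also given without it. Fewer cells of a kind and less RNA per cell cannot be told apart in such bulk samples.

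The stretch of 250 bases upstream of the start is shown for Fasn and Acly, whose levels followed each other most closely by rank. Both are on the minus strand of chromosome 11 and are written 5′ to 3′ in the direction of the gene, from RefSeq's GRCm38.p6. Capitals mark the letters CCAAT or their reverse complement ATTGG (the NF-Y box) in Fasn, and GGGCGG or CCGCCC (the GC box) in Acly.
Fasn, chr11:120824548-120824797, minus strand: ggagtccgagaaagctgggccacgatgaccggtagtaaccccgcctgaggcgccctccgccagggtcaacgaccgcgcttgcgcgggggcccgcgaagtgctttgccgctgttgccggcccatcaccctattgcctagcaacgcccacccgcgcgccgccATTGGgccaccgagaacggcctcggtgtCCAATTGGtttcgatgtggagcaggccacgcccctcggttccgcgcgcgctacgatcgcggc
Acly, chr11:100528001-100528250, minus strand: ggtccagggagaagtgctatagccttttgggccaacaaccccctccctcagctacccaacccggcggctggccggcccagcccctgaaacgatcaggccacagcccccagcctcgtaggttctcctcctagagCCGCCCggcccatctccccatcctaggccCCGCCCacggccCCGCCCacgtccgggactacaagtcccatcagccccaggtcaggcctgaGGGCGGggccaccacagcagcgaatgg
In Fasn, 3 matches to CCAAT began 90, 62 and 59 bases before the start, the last 2 of them overlapping. Acly held no CCAAT and 4 matches to GGGCGG, the nearest 27 bases before the start. Of the 10 genes, 8 had upstream windows in the RefSeq table, 11 windows in all because some have several starts. CCAAT lay in 7 of the 11 windows, in 6 genes, against 33.9% of 32851 windows of the same length. GGGCGG lay in 5 windows of 4 genes, against 32.7%. The letters TCACNCCAC, a form of the sterol regulatory element that SREBP binds, were in none of the 11 windows and in 1.05% of all. CACGTG, an E-box, was in 1 window, that of Elovl5, against 6.02% of all. ACGTG, the core of the hypoxia response element, which the E-box contains, was in 3 windows, against 16.6%. All motifs were searched on both strands, and a match describes letters, not binding.

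**Figure D1:**
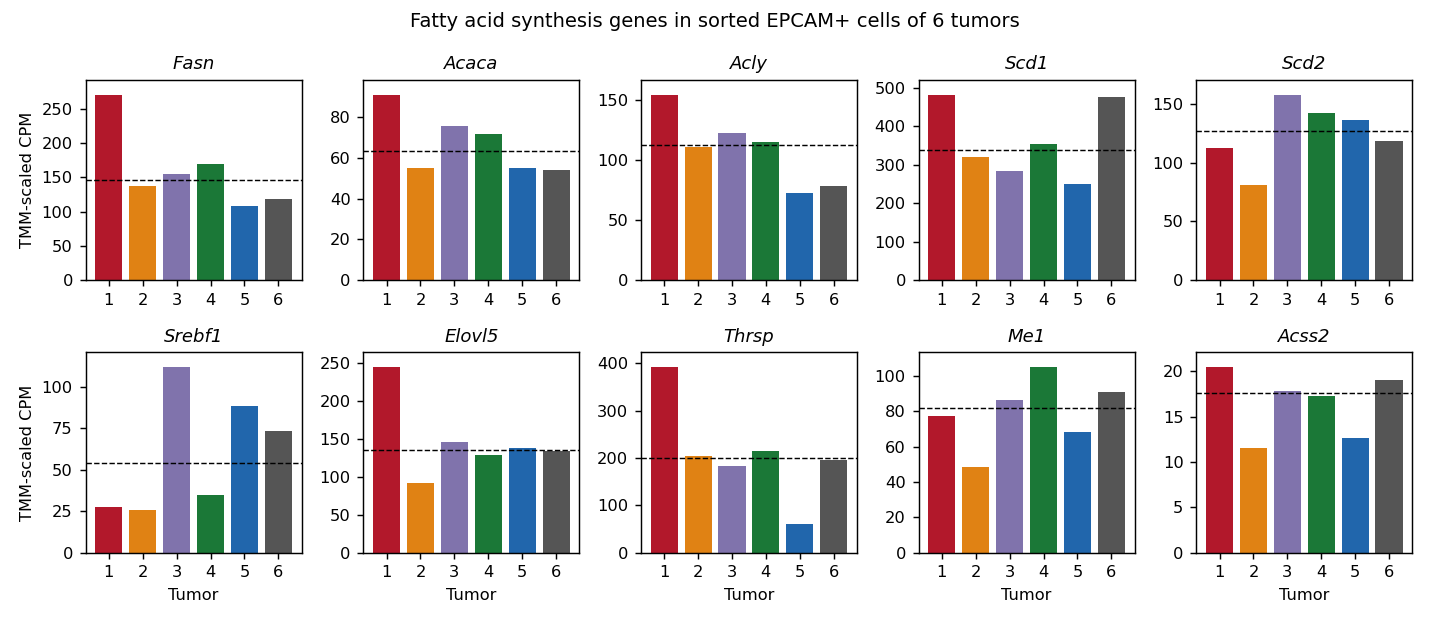
TMM-scaled CPM (y axis, from 0, a separate scale for each gene) of the 10 genes in tumors 1 to 6 (x axis). Each bar is 1 library and the dashed line is the median of the 6. The bar of tumor 1 is the tallest for 7 of the 10 genes, while Srebf1 is tallest in tumor 3 with 112.

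Fatty acid synthesis genes were expressed in all 6 tumors, together at 1012 to 1927 CPM with a median of 1309. Levels of a gene between tumors are given below as CPM scaled by edgeR's TMM factors, which lay between 0.910 and 1.06. Of the 10 genes, 7 were highest in tumor 1, where 32.5% of the 12088 genes tested were also at their highest. The same count of 7 was found under each of 4 other scalings. The exceptions were Srebf1 and Scd2, highest in tumor 3, and Me1, highest in tumor 4. Tumor 2 was lowest for 5 of the 10 genes and for 2586 of the 12088 genes tested. Its library was the shallowest, with 41.4% of reads on no gene, and the part of depth in these values was not tested. The ratio of the highest to the lowest tumor had a median of 2.15 over the 10 genes and ran from 1.68 for Acaca to 6.44 for Thrsp, and the median was 1.80 without tumor 1. With 1 added to each TMM-scaled CPM before dividing, the median ratio was 2.13 for the 10 genes and 2.30 for all genes tested.

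The genes of chain synthesis varied moderately. Fasn, the synthase itself (chr11:120805846-120824547), was at 271, 137, 154, 170.0, 108 and 118 TMM-scaled CPM in tumors 1 to 6. Tumor 1 stood well above the others, which lay within 1.57 times of each other, while all 6 spanned 2.503 times. With the trend by GC content removed from each library, Fasn ran from 121 (tumor 5) to 203 (tumor 1), a ratio of 1.68. Under the same alternative the ratio of Elovl5 went the other way, from 2.64 to 3.16. Acaca, whose product makes malonyl-CoA, had a median of 63.5 TMM-scaled CPM, with tumor 6 lowest (54.3) and tumor 1 highest (91.2). Its ratio of 1.68 was the smallest of the 10. Acacb, the paralog tied to the control of fatty acid oxidation, was far lower, at 1.60 to 6.38 CPM.

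Of the genes that supply acetyl-CoA, Acly had a median of 113 TMM-scaled CPM and ran from 72.2 (tumor 5) to 155 (tumor 1). Tumors 5 and 6 were the lowest for Acly and for Fasn alike. Acss2, which activates acetate in the cytosol, was the lowest of the 10 genes at 11.6 (tumor 2) to 20.4 (tumor 1) TMM-scaled CPM. Its mitochondrial paralog Acss1 was at 111 to 296 CPM and lay above Acss2 per length as well, with mean levels of 126 and 4.15 TPM (counts divided by exon length, then scaled to the same total). Acss3 did not exceed 0.213 CPM, which is under the limit that a count of 0 allows. Me1, the cytosolic malic enzyme, had a median of 81.9 TMM-scaled CPM, with tumor 2 lowest (48.7) and tumor 4 highest (105). The mitochondrial malic enzymes Me2 and Me3 reached at most 6.99 and 5.79 CPM.

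The stearoyl-CoA desaturases differed in which tumors were high. Scd1 was at 483 TMM-scaled CPM in tumor 1 and 477 in tumor 6, against 250.2 to 354 in the others. Scd2 was highest in tumor 3 with 158 and lowest in tumor 2 with 80.9, and tumors 1 and 6 were not among its higher values. Scd1 therefore made up between 66.8% (tumor 3) and 82.7% (tumor 1) of the TPM of Scd1 and Scd2 together. Over the 6 tumors the correlation of the desaturase pair was -0.28, and -0.23 without tumor 1. Scd3 stayed between 5.86 and 9.46 CPM and Scd4 at 0.390 CPM or below.

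Elovl5, the elongase of polyunsaturated chains (chr9:77917364-77984519), stood at 244 TMM-scaled CPM in tumor 1, 92.4 in tumor 2 and 128 to 146 in the others. The gap between tumor 1 and the next tumor was 0.651 of the range, which exceeded Dixon's 95% critical value for 6 values. Of the 10 genes, 1 had such a gap, and of all genes tested, 15.1%. Without tumor 1, its ratio of highest to lowest dropped from 2.64 to 1.57. Other elongases had patterns of their own: Elovl1 was highest in tumor 1 (135 CPM), Elovl6, which extends palmitate, in tumor 6, and Elovl7 in tumor 4. Elovl2, Elovl3 and Elovl4 did not pass the filter on low counts.

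Of the 10 genes, the regulatory Srebf1 and Thrsp varied most. Srebf1 (chr11:60199089-60222581) was at 27.4, 26.0, 112, 35.0, 88.2 and 73.6 TMM-scaled CPM in tumors 1 to 6. Tumors 3, 5 and 6 were thus all at 73.6 or above and tumors 1, 2 and 4 all at 35.0 or below, which gave a ratio of 4.30 between highest and lowest. In tumor 3, where Srebf1 and Scd2 peaked, the immune markers (308 CPM, of which Lyz2 148 CPM) and the erythroid markers (864 CPM) were also at their highest sums, and their part was not tested. In tumor 5, where Srebf1 was next highest, these sums were 128 and 13.2 CPM. Thrsp (chr7:97412938-97417730) was at 392, 206, 183, 215, 60.9 and 196 TMM-scaled CPM in tumors 1 to 6. Tumor 1 was high and tumor 5 low, with the other 4 between 183 and 215. The ratio of 6.44 depended on both ends: it was 3.54 without tumor 1 and 2.14 without tumor 5. In tumor 5 the 7 basal markers were also at their highest sum, 504 CPM against at most 289 CPM in the others. Krt14 (359 CPM) and Krt17 (127 CPM) made up most of it, and Myh11 (at most 2 counts) was also highest there. Of the rest, Krt5 and Trp63 were highest in tumor 4, Acta2 in tumor 3 and Oxtr in tumor 6. The part of these markers in the Thrsp level was not tested. Mid1ip1, the paralog of Thrsp, had a median of 18.6 CPM and reached 22.3 CPM. The 3′ end of Srebf1 shares 109 exonic bases with Rai1 on the opposite strand, and whether counting used the strand is not given in the sources used here, so reads in that overlap are uncertain. Rai1 itself was lowest in tumor 1 (25.5 CPM), with the other tumors between 61.3 and 80.1 CPM, and its part in the Srebf1 counts was not tested.

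**Figure D2:**
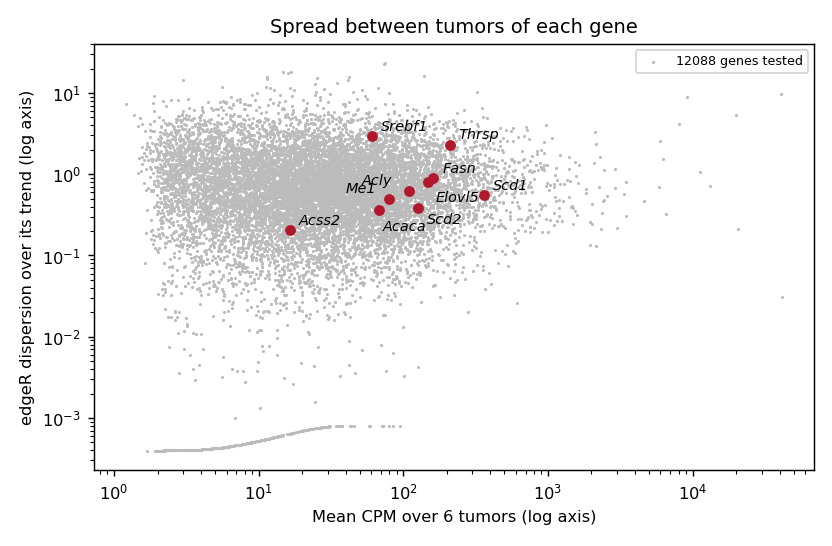
Spread between the 6 tumors as edgeR's genewise dispersion divided by its trend (y axis, log) against mean CPM (x axis, log), for the 12088 genes tested (grey) and the 10 fatty acid synthesis genes (red). The grey line of dots at the bottom holds genes whose estimate is at its lower bound. Srebf1 and Thrsp lie above the bulk of the genes and the other 8 within it.

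Set against the trend over all genes, Srebf1 and Thrsp varied more than most genes of their abundance. The dispersion of Srebf1 relative to the trend stood at percentile 93.8 of the 12088 genes and that of Thrsp at percentile 90.2. Without tumor 1 they stood at percentiles 97.7 and 95.0. The 8 enzymes lay between percentile 17.3 for Acss2 and 63.3 for Fasn. The 12 other regulators of the pathway, such as Scap and Nr1h3, had a median percentile of 32.5. The coefficient of variation between tumors beyond counting error was 60.1% for Srebf1, 54.2% for Thrsp, 33.5% for Fasn and 17.6% for Acss2. These percentiles are descriptions and carry no test.

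**Figure D3:**
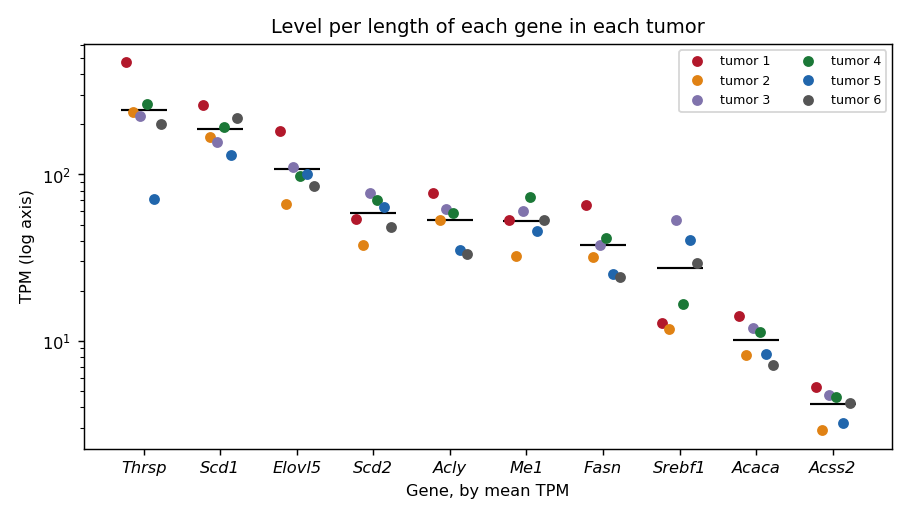
TPM (y axis, log) of the 10 genes, ordered from left to right by mean TPM. Each point is 1 tumor and the line is the mean of 6. Mean TPM runs from 245 for Thrsp to 4.15 for Acss2, and the points of many neighbouring genes overlap.

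Per unit of exon length, the order by mean TPM was Thrsp (245), Scd1 (188), Elovl5 (107), Scd2 (58.5), Acly (53.3), Me1 (52.9), Fasn (37.6), Srebf1 (27.3), Acaca (10.1) and Acss2 (4.15). Because the libraries read only the 3′ end of a transcript, dividing by length lowers long genes such as Acaca. With the longest transcript in place of the union of exons, 7 of the 10 genes kept their place, and by CPM, 1 did. The difference between neighbours exceeded its SD over the 6 tumors at only 4 steps. Scd1 exceeded Elovl5 by 0.84 ± 0.44 (SD, n = 6) in log2 TPM, and Elovl5 exceeded Scd2 by 0.83 ± 0.46 (SD, n = 6), each in 6 of 6 tumors. Srebf1 exceeded Acaca by 1.16 ± 0.99 (SD, n = 6) in 5 of 6 tumors, and Acaca exceeded Acss2 by 1.10 ± 0.23 (SD, n = 6) in 6 of 6. Thrsp and Scd1 did not differ beyond their spread (0.22 ± 0.62, SD, n = 6), nor did Scd2 and Acly, Acly and Me1, Me1 and Fasn, or Fasn and Srebf1.

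The levels of Fasn, Acaca and Acly followed each other across tumors. Correlations were computed on log2(TMM-scaled CPM + 1) over 6 tumors, with two-sided exact permutation p-values over 720 orders, the smallest possible being 0.00139, and with adjustment (Benjamini-Hochberg) over the 12087 other genes tested. Pearson's r with Fasn was 0.92 for Acaca (exact p = 0.0139) and 0.92 for Acly (exact p = 0.00417), with Spearman's rho of 0.77 (exact p = 0.103) and 0.94 (exact p = 0.0167). Both adjusted values for r were 0.376, so neither passed the correction. Of the 9 other members, these 2 had a positive r at an unadjusted p under 0.05, as did 6.7% of all genes. Tumors 1 and 5 were the pair farthest from the median of Fasn. Without them, r over tumors 2, 3, 4 and 6 was 0.86 for Acaca and 0.85 for Acly. Leaving out the farthest tumors narrows the range, so such values, here and below, are descriptions on few tumors. Without tumor 1 alone, r was 0.84 for Acaca and 0.92 for Acly. Thrsp had r = 0.81 with Fasn (exact p = 0.0806, adjusted p = 0.379), 0.70 without tumor 1 and 0.27 without tumors 1 and 5.

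The remaining genes were less close to Fasn, with r of 0.73 for Elovl5, 0.59 for Acss2, 0.52 for Scd1, 0.20 for Me1 and -0.03 for Scd2. Without tumor 1, r was -0.06 for Elovl5, 0.35 for Acss2, 0.05 for Scd1, 0.38 for Me1 and 0.24 for Scd2. Srebf1 had a negative r with Fasn of -0.57 (exact p = 0.233, adjusted p = 0.463) and rho of -0.37 (exact p = 0.497). Its r was -0.35 without tumor 1 and -0.14 without tumors 1 and 5. Fasn exceeded Srebf1 9.89-fold in tumor 1 and 1.23-fold in tumor 5 in TMM-scaled CPM. The identifiers in the labels have 2 prefixes, QAF with 4 tumors and QSD with 2 (tumors 2 and 3), too few for a correlation within QSD. Over the 4 QAF tumors alone, r of Srebf1 with Fasn was -0.96, again a description on few tumors.

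**Figure D4:**
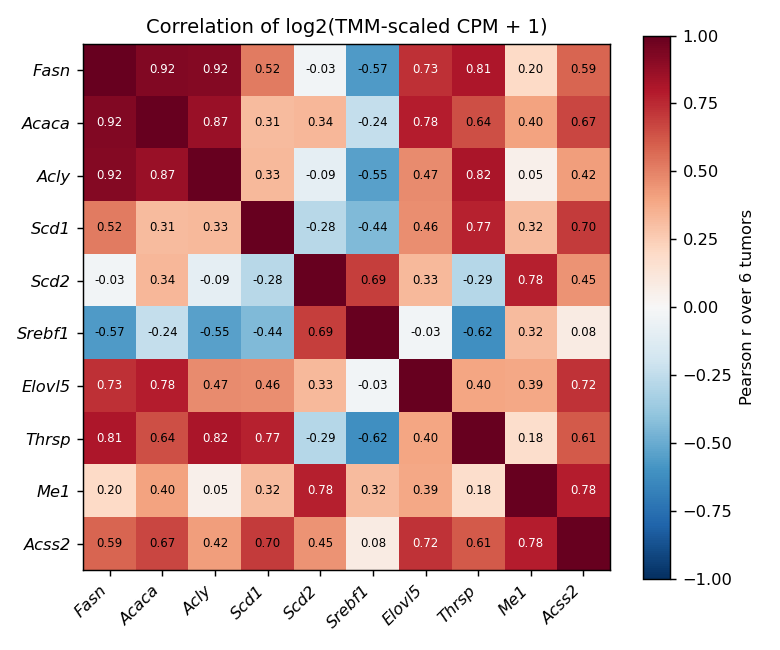
Pearson's r over 6 tumors for each of the 45 pairs of genes, from log2(TMM-scaled CPM + 1). Colors run from blue (-1) to red (1). Fasn, Acaca and Acly form a red block, with r between 0.87 and 0.92, and the row of Srebf1 is blue for 6 of 9 genes, with Scd2 (0.69), Me1 (0.32) and Acss2 (0.08) positive.

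Over the 45 pairs of members the median r was 0.40 and 35 pairs were positive, whereas the median over all pairs of genes tested was 0 and 49.99% were positive. Without tumor 1 the median was 0.38, with 33 pairs positive. The 9 pairs with Srebf1 had a median of -0.24 with 3 positive, and the 36 other pairs had a median of 0.47 with 32 positive. Without tumor 1 the pairs with Srebf1 had a median of 0.19 with 5 positive, so the sign of the median rested on that tumor. The pairs of Srebf1 with Fasn (-0.35), Acly (-0.35), Scd1 (-0.23) and Thrsp (-0.46) stayed negative. Those with Acaca and Elovl5 turned positive, from -0.24 to 0.19 and from -0.03 to 0.86, the latter the furthest move of the 9 pairs. Me1 was also close to Acss2 (r = 0.78) and to Scd2 (r = 0.78), and r was 0.90 and 0.79 for these pairs without tumor 1. All pairs share the same 6 libraries and their scaling, and the values are descriptions with no p.

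The genes whose pattern was most like Fasn, among 8872 with a mean of at least 10 CPM, were Prkca, Gtpbp1, Rab11fip3, Nrep and Cnnm3. Their r with Fasn over 6 tumors ran from 0.992 to 0.998 and their rho was 1. Without tumor 1, r ran from 0.985 to 0.995. Each had the smallest exact permutation p the design allows, and the adjusted p was 0.376 for all 5. None belongs to the lists of lipid genes used here.

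The question that the study's design raises is whether tumor cells differ with the hypoxia of their tumor. The 3-gene hypoxia score, the mean TPM of the hypoxia-induced genes Vegfa (the antibody's target), Slc2a1 (the glucose transporter GLUT1) and Car9 (a carbonic anhydrase), was 48.5, 37.2, 51.4, 76.6, 94.4 and 47.3 in tumors 1 to 6. Tumors 4 and 5 were thus at the upper end and tumor 2 at the lower. Slc2a1 weighed most in this mean, with a median of 108 TPM against 33.4 for Vegfa and 16.9 for Car9. Tumor 1 was lowest for both Vegfa and Car9. With a geometric mean of the score genes, tumor 1 was lowest (29.0), next to tumor 2 (29.7), and tumors 4 and 5 stayed highest (62.6 and 85.4). For each gene, edgeR's quasi-likelihood test gave the slope of log2 expression per doubling of this score. None of the 10 fatty acid synthesis genes passed an adjusted p of 0.05, and neither did any gene (0% of 12088, the genes of the score included). At an unadjusted p under 0.05, 0 of the 10 genes and 4.24% of all genes passed. DESeq2 called 0 of the 10 genes and 14 genes in all.

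**Figure D5:**
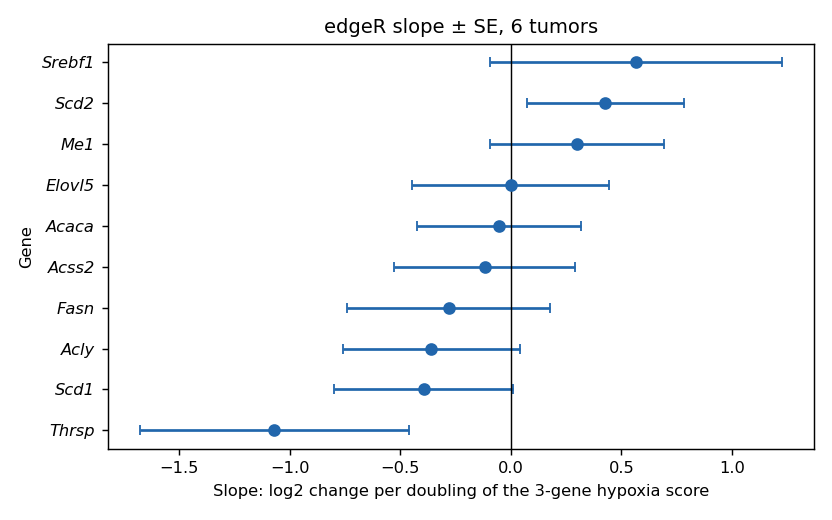
Slope of each gene on log2 of the hypoxia score (x axis, log2 change per doubling of the score) from edgeR, with bars of ± 1 SE over 6 tumors. The genes are ordered by slope from Thrsp at -1.07 to Srebf1 at 0.57. No adjusted p is under 0.954.

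Slopes ranged from -1.07 ± 0.61 (SE) for Thrsp to 0.57 ± 0.66 for Srebf1, with adjusted p-values from edgeR of 0.954 to 1.00. Their median was -0.09, against -0.04 over all genes tested, and 7 were negative. Fasn had a slope of -0.28 ± 0.46, Acly of -0.36 ± 0.40 and Scd1 of -0.40 ± 0.40. Scd2 had a slope of 0.43 ± 0.35 and Me1 of 0.30 ± 0.39. Those of Acaca, Acss2 and Elovl5 were -0.05, -0.12 and -0.00. For 8 of the 10 genes, all but Thrsp and Scd2, the slope was smaller than its SE. Thrsp had the lowest unadjusted p of the 10 (edgeR, 0.111), with r = -0.66 (exact p = 0.156) and rho = -0.37 (exact p = 0.497) with the score. Without tumors 4 and 5, farthest from the median score, its r over the few tumors left was 0.15. Its slope of -1.07 was -0.05 without tumor 5, so that library decided it. Without tumor 5, the slopes of Fasn, Acly, Acaca and Acss2 turned positive (0.23, 0.08, 0.33 and 0.36), that of Me1 was 0.93 and that of Scd1 -0.04. The slope of Srebf1 was 0.09 without tumor 2 and 0.15 without tumor 5. Within the 4 QAF tumors the slopes were -1.73 for Thrsp, -0.67 for Fasn and -0.86 for Scd1. In simulated counts with the spread of these tumors, a slope of 2 was recovered in 56.5% of genes and a slope of 3 in 97.5%. Smaller slopes, such as those seen here, were not simulated.

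Of 43 further genes of fatty acid metabolism, 37 passed the filter. None passed an adjusted p of 0.05 for the slope on the score, and at an unadjusted p under 0.05, 0 rose and 2 fell with it, against 2.51% of all genes rising and 1.72% falling. These 2, named after their values were seen, were Nr1h3 (slope -1.29 ± 0.45), which encodes the sterol-sensing receptor LXRα, and Dgat1 (-0.99 ± 0.35), which completes triglyceride synthesis. In this list 13 of 37 genes were highest in tumor 1, close to the share over all genes. Leaving aside genes whose mean was under 10 CPM, the largest ratios between tumors were those of Hacd2 (8.58-fold), Slc25a1 (4.07), Tecr (3.31), Mlx (3.16) and Elovl6 (3.13). The lowest value of Hacd2 rests on 7 counts in tumor 2, the shallowest library. In the last 300 bases of Tecr, 17.1% of stretches of 50 bases were shared with another gene. Without tumor 1 the ratios of Hacd2 and Elovl6 did not move, while those of Slc25a1, Tecr and Mlx were 1.36, 1.60 and 1.31. Slc25a1, the carrier that exports citrate from mitochondria to Acly, was at 105 CPM in tumor 1 with a median of 31.3 CPM over the 6 tumors. Its r with Fasn was 0.91 (exact p = 0.0181, adjusted p = 0.376), 0.66 without tumor 1 and 0.51 without tumors 1 and 5. Tecr, the last reductase of the elongation cycle, was likewise highest in tumor 1 at 516 CPM, whereas Hacd2, a dehydratase of the same cycle, was highest in tumor 5 at 25.4 CPM. Mlx, the partner of the carbohydrate-responsive factor ChREBP, was lowest in tumor 1 at 10.7 CPM.

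Per length, the most abundant of these 43 genes were Mdh1 (mean 313 TPM), Tecr (297), Acss1 (126), Hacd3 (112) and Hsd17b12 (105). Mdh1, the cytosolic malate dehydrogenase that feeds malate to Me1, was highest in tumor 1 at 520.1 CPM. Hsd17b12, the ketoreductase of elongation, varied least of these, at 93.8 to 110 CPM. Of genes named after their values were seen, Scap, the escort of SREBP, was at 46.5 to 137 CPM and highest in tumor 1, while Insig1, which retains it, was at 1.17 to 4.61 CPM. Olah, the thioesterase that releases medium-length chains in milk fat synthesis, had 10 counts at most.

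The genes of cholesterol synthesis, governed mainly by SREBP2, were taken as a list beside the fatty acid genes. Of 15, 14 passed the filter, none passed an adjusted p of 0.05 for the slope, and 2 rose with the score at an unadjusted p under 0.05 in edgeR (Hmgcs1, 0.85 ± 0.33, and Sqle, 0.68 ± 0.29, named after their values were seen), against 2.51% of all genes rising. Their median slope was 0.42 against -0.09 for the fatty acid genes, a difference that was not tested. Srebf2 was at 46.9 to 89.9 CPM and highest in tumor 1, where Srebf1 was among its lowest, and its ratio of 1.85 was 1.11 without tumor 1. The median r of the cholesterol genes with Fasn was 0.54, with 11 of 14 positive, and 0.08 with 8 positive without tumor 1. The 7 milk protein genes all passed the filter and all had a negative slope (median -1.15), as did 53.2% of all genes, and 1 of them, Lalba (named after its value was seen), had an unadjusted p under 0.05 (edgeR, -1.15 ± 0.47), against 1.72% of all genes falling. None passed the adjustment.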

How the data were processed

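RNA of sorted CD45-EPCAM+ cells from 6 treated tumors was sequenced from the 3′ end (QuantSeq FWD). Per the study's methods and the submitters' processing notes, the authors trimmed reads with bbduk, aligned them with STAR 2.5 to GRCm38/mm10 and counted them with HTSeq. The authors deposited raw counts per gene, without normalization. Annotation release, strand setting and collapsing of molecular identifiers are not given in the sources used here. Lines that name no gene (16.1 to 41.4% of reads) were left out.

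From the counts, CPM, TMM-scaled CPM and TPM (union exon lengths, GENCODE M21, which matched 47224 of 47643 identifiers) were computed. Genes were filtered at a minimum count of 10 in 3 libraries and a minimum total of 15. Slopes on log2 of the score were tested with edgeR 4.0.16 (quasi-likelihood, TMM, R 4.3.3), with Benjamini-Hochberg adjustment over 12088 genes, and DESeq2 1.42.0 was an alternative. The test was tested on simulated data: of the calls, 3.42% of 117 (slope 2) and 5.80% of 207 (slope 3) were false. Relations used exact permutation over 720 orders. Coordinates are GRCm38. In the last 300 bases of each member's transcript, no stretch of 50 bases was shared with another gene.

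The members and lists were chosen with earlier results of these data known. Named genes are the 10 members, the score genes, paralogs, Srebf2, marker genes, the 5 genes most like Fasn, and of the other pathway genes the 5 with the largest ratio between tumors (mean of at least 10 CPM) and the 5 with the highest mean TPM. Other genes were named after their values were seen. Labels do not say that the tumors came from separate mice, so p-values measure the spread between these samples. Alternatives were other scalings, filters, pseudocounts and scores, a GC trend removed, the identifier prefix, and each tumor left out. Vehicle-treated tumors and the CD45+ fraction were not analysed here.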

Additional observations from a re-analysis of the deposited data

Results flagged for a closer look

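For each measure, the distance of the highest or lowest tumor from its neighbour was divided by the range of the 6 tumors and set against Dixon's 95% critical value. The 59 measures were the 10 genes, the 37 other pathway genes tested, Srebf2, 7 sums of marker genes, the summed level of the 10 genes, the Scd1 share, the hypoxia score and the correlation between libraries. A tumor passed the value in 14 of them, and in 11 it was tumor 1. Chance alone gives this in about 1 in 20 groups of normal values, and 15.1% of all genes tested had one.

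Among the fatty acid synthesis genes this was Elovl5, with tumor 1 at 244 TMM-scaled CPM, the next tumor at 146 and a gap of 0.651 of the range. Of the 37 other pathway genes, 10 had such a tumor. Tumor 1 was far above the rest for 7 of them: Slc25a1 (102 against at most 34.3 TMM-scaled CPM, gap 0.881), Scap (133 against at most 65.4, gap 0.799), Tecr (501 against at most 243, gap 0.738), Mlycd (28.0 against at most 16.0, gap 0.729), Gpat4 (259 against at most 163, gap 0.694), G6pdx (45.7 against at most 26.8, gap 0.690) and Mdh1 (505 against at most 335, gap 0.6253, just past the critical value). It was far below the rest for Mlx (10.4 against at least 24.9, gap 0.650). Fads2 was highest in tumor 6 (6.65 against at most 3.30, gap 0.695) and Scd3 in tumor 3 (8.92 against at most 7.30, gap 0.652), both on few counts. Srebf2 was higher in tumor 1 as well (87.4 against at most 52.4, gap 0.869). The erythroid markers summed to 864 CPM in tumor 3 against at most 69.4 CPM elsewhere (gap 0.926). The library of tumor 1 also had the lowest median correlation with the others (0.788 against at least 0.905, gap 0.775). The part that library played in the values of these genes was not tested.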

How the results depend on the processing

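No paired analysis was possible because the labels give 1 group. No alternative called any of the 10 genes at an adjusted p of 0.05, or of 0.1 in the main test. The number of genes called in all was 0 in the main test, 14 with DESeq2, 10 with no filter on low counts and 0 to 2 with each tumor left out, the 2 without tumor 1. At an unadjusted p under 0.05 the number of the 10 genes was 0, but 1, Thrsp, with a geometric mean of the score genes and with the identifier prefix as a term, and 0 to 1 with each tumor left out, the 1 without tumor 4. Of 150 alternative slopes, 18 changed sign, none of them called in either fit. With each tumor left out, slopes ran from -0.54 to 0.23 for Fasn, from -0.26 to 0.33 for Acaca, from -0.53 to 0.084 for Acly, from -0.40 to 0.25 for Elovl5, from -0.049 to 0.93 for Me1, from -0.47 to 0.36 for Acss2, from -0.65 to -0.04 for Scd1, from 0.19 to 0.74 for Scd2, from 0.09 to 1.01 for Srebf1 and from -1.66 to -0.05 for Thrsp. Elovl5 turned positive with DESeq2 (0.011), DESeq2 size factors in edgeR (0.011), library size only (0.051) and no filter (0.0042), and Me1 turned negative in the 4 QAF tumors (-0.082). Without tumors 1 and 3, an alternative chosen after seeing the data, slopes turned positive for Fasn (0.0032), Acaca (0.15), Elovl5 (0.32) and Acss2 (0.010). The cause was not tested. The median r over pairs was 0.50 with CPM, and 0.35 to 0.62 with each tumor left out. The r of Scd2 with Fasn turned positive with CPM (0.17) and with the GC trend removed (0.19). By CPM, 1 gene kept its place in the order by TPM. The median ratio of highest to lowest tumor stayed between 1.80 and 2.25. Leaving out the 10 most abundant genes raised the median of all genes by 0.21 to 0.35 on the log2 scale, since it lowers the total. The dispersion percentiles, the correlations with Fasn or between members, and the ratios of other genes without tumor 1 were also added after seeing the data. Depth limits Acss2 most, which had 28 counts in the smallest library.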

Other observations

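Thrsp was set beside the milk protein genes after its values were seen. Csn1s1, which encodes a casein, was highest in tumor 1 (621 TMM-scaled CPM) and lowest in tumor 5 (102), as Thrsp was, and its r with Thrsp over 6 tumors was 0.89 (exact p = 0.00278, adjusted p = 0.616) with rho = 1 (exact p = 0.00278). Without tumors 1 and 5, r was 0.995. Wap, the whey acidic protein, had r = 0.93 with Thrsp (exact p = 0.00417, adjusted p = 0.616), and 0.68 without those tumors. Csn1s2a had r = 0.97 (exact p = 0.00972, adjusted p = 0.616), which became 0.40 without them. Csn3, the most abundant of the 7 at 5017 to 8675 TMM-scaled CPM, had r = 0.07 with Thrsp (exact p = 0.883) and -0.73 without those tumors, and Csn2 had r = 0.43 (exact p = 0.396) and -0.53 without them. Lalba had r = 0.89 (exact p = 0.0639, adjusted p = 0.616), which turned to -0.94. Glycam1 had r = 0.83 (exact p = 0.0125, adjusted p = 0.616), and 0.79 without them. None passed the adjustment over all genes tested, and the values without tumors 1 and 5 rest on tumors 2, 3, 4 and 6 only.

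Also named after their values were seen, the genes most like Thrsp by r, among 8872, began with Slc43a2, Mtus1 and Abhd5, the last a co-activator of triglyceride lipase. Their r was 0.996, 0.995 and 0.991, and fell to 0.54, 0.68 and 0.86 without tumors 1 and 5. Closest to Srebf1 was Tspan31 (r = 0.993, and 0.997 without tumors 2 and 3). The adjusted p was 0.616 for each of the 3 genes near Thrsp and 0.617 for Tspan31 (exact permutation).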
